A study of Homo sapiens with 6 samples.

Results

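GADD45 proteins and cyclin-dependent kinase (CDK) inhibitors slow or stop the cell cycle, and their mRNAs were described here in SW480 cells, a cell line from a human colorectal adenocarcinoma. The genes were chosen by symbol, as every row of the deposited table whose name starts with GADD45 or CDKN, which gave 14 of 8529 genes. GADD45G drew attention to the group because it was picked from the comparison of 2 kPa with 25 kPa itself, so its own difference is given as a description without a test. The other 13 genes were taken by name alone. Wild-type SW480 cells in Leibovitz's L-15 medium were kept for 72 h without added CO2 on hydrogels of 2 kPa, a soft matrix, or 25 kPa, a stiff matrix, and each stiffness had 3 wells and 3 libraries. All 6 libraries come from 1 cell line, and nothing in the labels says that the wells were separate passages, so p-values measure the spread between wells, which may be technical. The study asked how matrix stiffness acts on colorectal cancer cells.

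The GADD45 proteins are small stress sensors without enzymatic activity that bind the CDK1 and cyclin B1 complex, PCNA and the kinase MAP3K4, and GADD45G is known in several tumour types for silencing by promoter methylation. CDK inhibitors fall into a pair of families. The CIP/KIP proteins p21 (CDKN1A), p27 (CDKN1B) and p57 (CDKN1C) bind CDK2 with cyclin E or A, and the INK4 proteins p16 (CDKN2A), p15 (CDKN2B), p18 (CDKN2C) and p19 (CDKN2D) bind CDK4 and CDK6. The symbol rule also took in CDKN3, a phosphatase that acts on CDK2 and is made mainly by dividing cells. It further took in GADD45GIP1, CDKN2AIP and CDKN2AIPNL, 3 genes named as an interacting protein or as a relative of one.

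The authors deposited FPKM, a read level already scaled to gene length and library size, so levels of different genes are compared per length. The FPKM summed to between 201030 and 263028 per library, and between libraries of the same stiffness Pearson r over genes, which are not independent replicates, lay from 0.974 to 0.988. The number of reads is unknown, and no counting error can be given. Of 12 epithelial markers, 8 were in the table, with a summed FPKM of 4691 to 4977 at 2 kPa and 3821 to 5023 at 25 kPa. Of 10 fibroblast markers, 4 were in the table and summed to 0.84 to 2.22 FPKM at 2 kPa and 2.93 to 3.20 FPKM at 25 kPa. Of 10 leukocyte markers, 3 were in the table and summed to 3.98 to 5.47 FPKM at 2 kPa and 2.39 to 3.59 FPKM at 25 kPa. The whole table held no value of 0 (lowest 0.01 FPKM), so none of these markers could be listed at 0. In every library 3 of the 4 fibroblast, 1 of the 3 leukocyte and 1 of the 8 epithelial markers were under 1 FPKM. The epithelial markers CLDN4 (175 and 125 FPKM on average at 2 kPa and 25 kPa), KRT19 (1562 and 1132 FPKM) and CDX2 (0.677 and 0.217 FPKM) and the leukocyte marker LYZ (3.54 and 2.24 FPKM) were lower at 25 kPa without overlap, and the fibroblast marker ACTA2 (1.17 and 2.35 FPKM) was higher. These 5 had limma adjusted p over all genes from 0.224 to 0.537, and 16.0% of all genes had no overlap. KRT19 was not apart after median centring, nor ACTA2 with libraries rescaled to equal sums. The other 5 of the 8 epithelial markers overlapped, EPCAM among them higher at 25 kPa on average (74.2 and 85.0 FPKM). The part of these markers in the results below was not tested.

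The stretch of 250 bases upstream of the annotated start is shown for GADD45G and GADD45B, the GADD45 genes whose libraries lay apart between the stiffness levels, and for CDKN3, the member with the smallest p among the 13 taken by name. The sequences are from RefSeq on GRCh38.p14 and read 5′ to 3′ on the plus strand, at chr9:89604762-89605011 for GADD45G, chr19:2475877-2476126 for GADD45B and chr14:54396757-54397006 for CDKN3. The submitters' processing notes name hg18, so these positions do not belong to the build of the files. Capitals mark the motifs found by a search of both strands.
GADD45G: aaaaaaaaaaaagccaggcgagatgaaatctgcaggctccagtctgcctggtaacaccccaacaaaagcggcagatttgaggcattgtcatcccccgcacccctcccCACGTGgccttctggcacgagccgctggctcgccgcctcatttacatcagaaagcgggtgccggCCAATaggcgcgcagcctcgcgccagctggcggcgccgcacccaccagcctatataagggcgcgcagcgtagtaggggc
GADD45B: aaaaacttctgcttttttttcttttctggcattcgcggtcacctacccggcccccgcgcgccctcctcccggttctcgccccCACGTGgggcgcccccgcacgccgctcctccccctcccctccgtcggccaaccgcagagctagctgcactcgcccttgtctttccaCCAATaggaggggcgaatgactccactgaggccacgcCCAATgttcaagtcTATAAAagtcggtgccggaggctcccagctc
CDKN3: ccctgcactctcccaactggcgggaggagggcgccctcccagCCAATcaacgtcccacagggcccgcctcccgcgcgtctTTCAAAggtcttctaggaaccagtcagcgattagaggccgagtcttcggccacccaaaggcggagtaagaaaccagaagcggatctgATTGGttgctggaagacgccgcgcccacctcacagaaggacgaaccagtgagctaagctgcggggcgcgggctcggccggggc

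GADD45G and GADD45B each held the E-box CACGTG, 143 and 168 bases before the start, a motif present in 6.34% of 35116 windows of this length. The E-box was also found for CDKN2C, 220 and 69 bases before the start in separate windows, and CDKN2C overlapped between the stiffness levels. GADD45G and GADD45B also held the CCAAT box (CCAAT or ATTGG, in 11240 of the 35116 windows). It lay 79 bases before the start in GADD45G and 82 and 45 bases before it in GADD45B. GADD45B alone of these 3 held the exact letters TATAAA (10.7% of windows), 31 bases before the start. Other spellings of a TATA box were not searched, so their absence from GADD45G or CDKN3 is not shown. CDKN3 held 2 CCAAT boxes, 208 and 83 bases before the start, and the cell cycle homology region motif TTTGAA (here as its reverse TTCAAA, in 13.3% of windows) 170 bases before it. Of the 14 genes, 12 had a window, CDKN2A with 2 and CDKN2C with 3, and CDKN1C and GADD45A had none. Among these 15 windows the GC box GGGCGG or CCGCCC (42.6% of windows) was found for 8 genes and for neither GADD45 gene shown. The heat shock motif GAANNTTC (5.78% of windows) was found for CDKN2D, and TTCNNGAA (6.62%) for 0 members. The TEAD motif GGAATG or CATTCC (11.9%) was found for CDKN2B and CDKN2C, while TGANTCA (6.57%) and TGACGTCA (1.65%) were found for 0 members. A match is a description of letters and not a measured binding site.

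On the stiff matrix, the FPKM of GADD45G, GADD45B and CDKN1C were lower and those of CDKN3 and CDKN1B higher, without overlap between the libraries. The mean was 2.01-fold higher at 2 kPa for GADD45B and 1.84-fold for CDKN1C, and 1.83-fold higher at 25 kPa for CDKN3 and 1.24-fold for CDKN1B. In RNA from a whole well, fewer cells that express a gene and less of its RNA per cell cannot be told apart. Of the 13 genes taken by name, 0 passed an adjusted p under 0.05 in limma over all 8529 genes, which 0.117% of all genes did (0.0703% higher and 0.0469% lower at 25 kPa). At an unadjusted p under 0.05 there were 4 of the 13, namely CDKN1B and CDKN3 higher and CDKN1C and GADD45B lower at 25 kPa, where 10.2% of all genes were (6.96% higher and 3.19% lower). The soft and stiff libraries had no overlap for 5 of the 13, the same 4 genes and CDKN2AIPNL, against 16.0% of all genes (11.2% higher and 4.78% lower at 25 kPa). By log2 fold change, 9 of the 13 were above 0 and 4 below, with a median of 0.17, beside a median of 0.05 and 59.6% above 0 over all genes. Fold changes were taken on log2(FPKM + 1), where differences of low genes come out too small, and 5 of the 14 had a mean FPKM under 1, as 31.9% of all genes did.

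**Figure D1:**
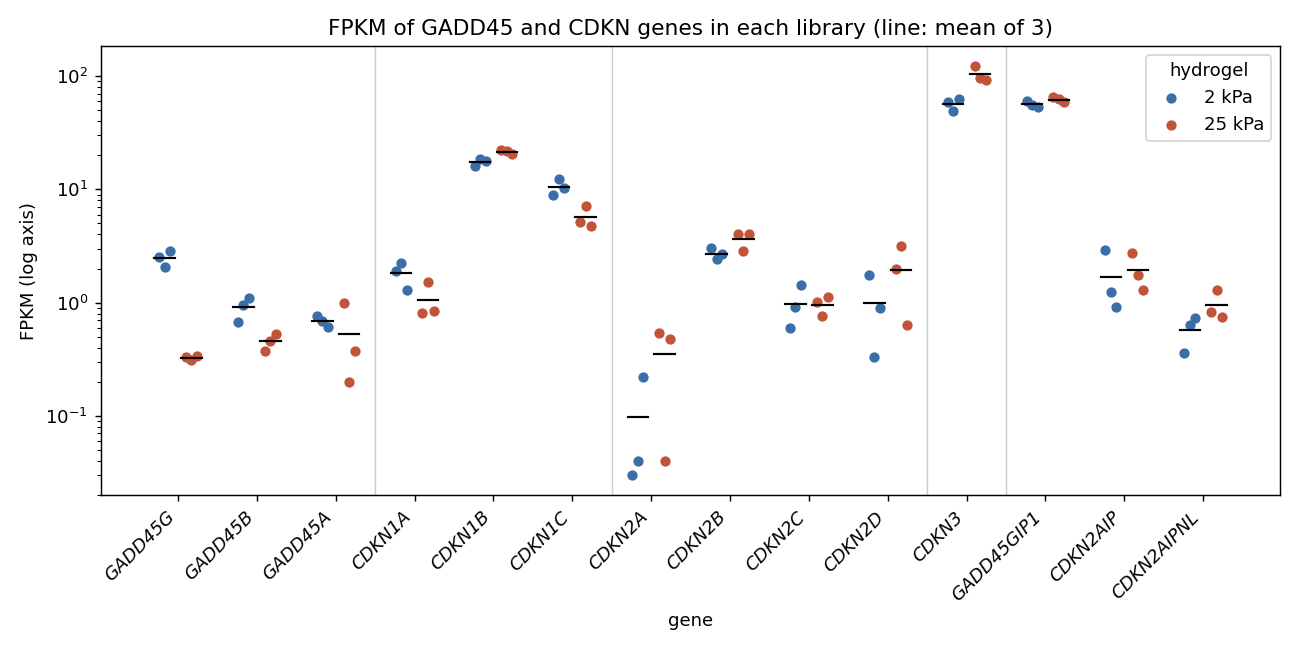
FPKM (log axis) of the 14 genes in each of the 6 libraries, with blue points for 2 kPa, red points for 25 kPa and a black line at the mean of 3. GADD45G sits between 2.06 and 2.84 FPKM at 2 kPa and between 0.31 and 0.34 FPKM at 25 kPa, while CDKN3 lies above 93 FPKM in every library at 25 kPa and below 63 FPKM in every library at 2 kPa.

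The split of separated genes into higher and lower depended on the scaling between libraries, because over all genes 70.0% of them were higher as deposited, 52.6% with median centring, 52.4% with quantile normalisation and 40.7% with libraries rescaled to equal sums. GADD45G, GADD45B, CDKN1C and CDKN3 lay apart, each in the same direction, under all 4 of these scalings. CDKN1B did not after rescaling to equal library sums or median centring, and CDKN2AIPNL did not after median centring or quantile normalisation.

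Among the GADD45 genes, GADD45G was listed at 2.53, 2.06 and 2.84 FPKM at 2 kPa and at 0.33, 0.31 and 0.34 FPKM at 25 kPa. The lowest soft library was above every stiff library, and the stiff libraries differed little, with a coefficient of variation of 4.68% against 15.9% at 2 kPa. The mean was 7.58-fold higher at 2 kPa in FPKM, and the log2 fold change was −1.38 (SE, the standard error, 0.18), or −2.58 with a pseudocount of 0.1 and −2.87 with 0.01. It was the 6th of the 14 genes by level at 2 kPa and the 14th, the lowest, at 25 kPa.

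GADD45B, a GADD45 gene usually induced early by cytokines such as TGF-beta, was listed at 0.68, 0.95 and 1.10 FPKM at 2 kPa and at 0.37, 0.46 and 0.53 FPKM at 25 kPa. Every soft library lay above every stiff one, with means of 0.910 ± 0.213 and 0.453 ± 0.0802 FPKM (SD, n = 3). The log2 fold change was −0.39 (SE 0.14) and did not pass over all genes (limma adjusted p = 0.396), and with a pseudocount of 0.01 it was −0.98. GADD45A, the member named for its induction by DNA damage, was listed at 0.76, 0.69 and 0.61 FPKM at 2 kPa and at 1.00, 0.20 and 0.37 FPKM at 25 kPa. The stiff libraries held both the highest and the lowest GADD45A value, so the groups overlapped (log2 fold change −0.18, SE 0.19, limma adjusted p = 0.826). Without 25 kPa replicate 1 the log2 fold change of GADD45A was −0.39, and without 25 kPa replicate 2 it was −0.03.

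Together the 3 GADD45 genes summed to 3.97, 3.70 and 4.55 FPKM at 2 kPa and to 1.70, 0.97 and 1.24 FPKM at 25 kPa. A share within a library does not depend on the scaling between libraries. GADD45G made up 63.7%, 55.7% and 62.4% of this sum at 2 kPa and 19.4%, 31.96% and 27.4% at 25 kPa. The soft libraries therefore held mostly GADD45G, and at 25 kPa GADD45A led in replicate 1 (58.8%) and GADD45B in replicates 2 and 3 (47.4% and 42.7%). The share of GADD45A was higher at 25 kPa without overlap (13.4% to 19.1% at 2 kPa and 20.6% to 58.8% at 25 kPa), and that of GADD45B overlapped. The FPKM of GADD45A itself overlapped, with means of 0.687 at 2 kPa and 0.523 at 25 kPa. Its share was thus higher where its mean FPKM was not and where the summed FPKM was lower. In 25 kPa replicate 1, which had the 58.8% share, GADD45A was at 1.00 FPKM, above the soft libraries (0.61 to 0.76 FPKM). In 25 kPa replicates 2 and 3 it was at 0.20 and 0.37 FPKM, below them. What made the share higher was not tested. These sums and shares rest on the values of GADD45G and carry no test.

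**Figure D2:**
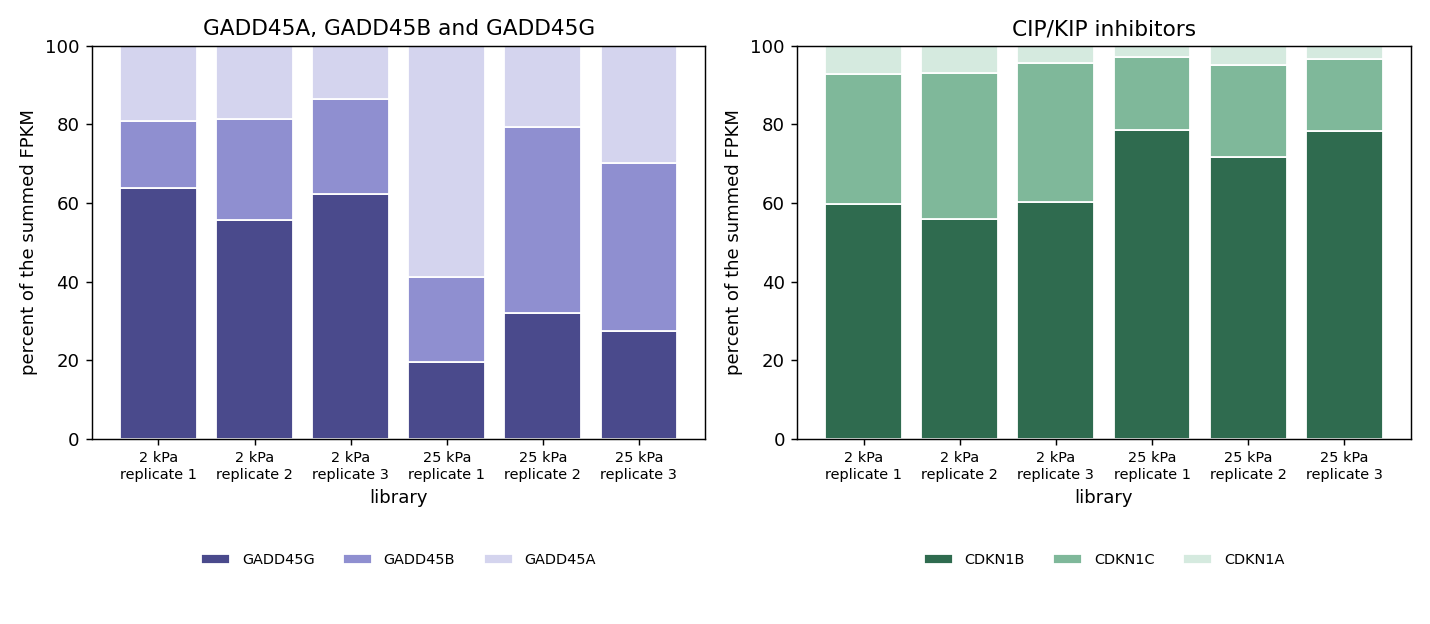
Share of the summed FPKM (percent) that each GADD45 gene (left) and each CIP/KIP inhibitor (right) takes in each of the 6 libraries. GADD45G takes over 55% in each soft library and under 32% in each stiff one, and CDKN1C takes over 33% of the CIP/KIP sum in each soft library and under 24% in each stiff one.

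Within the CIP/KIP family, CDKN1C mRNA was lower and CDKN1B mRNA higher on the stiff matrix, neither past the adjusted threshold and CDKN1B not apart under every scaling, and the summed FPKM of the family overlapped. CDKN1C, an imprinted gene whose protein p57 promotes exit from the cell cycle during differentiation, was listed at 8.92, 12.26 and 10.35 FPKM at 2 kPa and at 5.20, 7.16 and 4.78 FPKM at 25 kPa. Every soft library was above every stiff one. The mean was 1.84-fold higher at 2 kPa, and the log2 fold change of −0.78 (SE 0.19) ranked 121st by p and did not pass (limma adjusted p = 0.210). It stayed between −0.93 and −0.68 whichever single library was omitted.

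CDKN1B, whose protein p27 holds CDK2 inactive in resting cells and is controlled largely by degradation, was listed at 16.03, 18.46 and 17.65 FPKM at 2 kPa and at 22.24, 21.97 and 20.51 FPKM at 25 kPa. The groups did not overlap, and the log2 fold change was 0.30 with an SE of 0.12 (limma adjusted p = 0.426). CDKN1A, whose protein p21 is a CDK inhibitor induced by many kinds of stress, was listed at 1.92, 2.23 and 1.28 FPKM at 2 kPa and at 0.81, 1.52 and 0.85 FPKM at 25 kPa. Soft replicate 3 lay below stiff replicate 2, so the groups overlapped (log2 fold change −0.45, SE 0.23, limma adjusted p = 0.564).

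The CIP/KIP genes summed to 26.87, 32.95 and 29.28 FPKM at 2 kPa and to 28.25, 30.65 and 26.14 FPKM at 25 kPa, so the sums overlapped. Within that sum, CDKN1C took 33.2%, 37.2% and 35.3% at 2 kPa and 18.4%, 23.4% and 18.3% at 25 kPa. CDKN1B took 59.7%, 56.0% and 60.3% at 2 kPa and 78.7%, 71.7% and 78.5% at 25 kPa. Neither share overlapped between the groups, and CDKN1B was the main CIP/KIP mRNA in every library. Per library, the CDKN1C to CDKN1B ratio averaged 0.602 ± 0.0556 (SD, n = 3) on the soft and 0.264 ± 0.0534 (SD, n = 3) on the stiff matrix. These shares were described and not tested.

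The INK4 genes were low, and for each of the 4 the libraries of the stiffness levels overlapped. CDKN2B, whose protein p15 is a known effector of TGF-beta arrest, was the highest of them on average, with 3.04, 2.43 and 2.66 FPKM at 2 kPa and 4.05, 2.85 and 4.05 FPKM at 25 kPa. Its log2 fold change was 0.32 with an SE of 0.22 (limma adjusted p = 0.690). CDKN2D was uneven between libraries of the same stiffness, with 1.76, 0.33 and 0.90 FPKM at 2 kPa and 2.00, 3.18 and 0.63 FPKM at 25 kPa. Its coefficient of variation was 72.2% at 2 kPa and 65.9% at 25 kPa, and its log2 fold change of 0.52 (SE 0.38) did not pass (limma adjusted p = 0.719).

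CDKN2C was listed at 0.60, 0.92 and 1.42 FPKM at 2 kPa and at 1.01, 0.76 and 1.11 FPKM at 25 kPa. Its means were nearly equal, with a log2 fold change of 0.002 and a 95% confidence interval from −0.45 to 0.45 (limma adjusted p = 0.999). CDKN2A, which encodes p16 and, from another start, ARF, was the lowest of the 14 on average, with 0.03, 0.04 and 0.22 FPKM at 2 kPa and 0.54, 0.04 and 0.48 FPKM at 25 kPa. Stiff replicate 2 was as low as the soft libraries, and the table does not separate p16 from ARF (log2 fold change 0.29, SE 0.15, limma adjusted p = 0.572). CDKN2A and CDKN2B are overlapped on the opposite strand by CDKN2B-AS1 in GENCODE release 29, and whether the counting used strand is not given in the sources used here. The 4 INK4 genes summed to 5.43, 3.72 and 5.20 FPKM at 2 kPa and to 7.60, 6.83 and 6.27 FPKM at 25 kPa. These sums did not overlap, although each gene alone did.

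All 7 CDK inhibitors together summed to 32.30, 36.67 and 34.48 FPKM at 2 kPa and to 35.85, 37.48 and 32.41 FPKM at 25 kPa. The summed level overlapped between the groups, while its makeup differed, with CDKN1C at 30.4% ± 2.92 (SD, n = 3) of it on the soft and 16.1% ± 2.59 (SD, n = 3) on the stiff matrix. CDKN1B was at 50.4% ± 0.781 (SD, n = 3) on the soft and 61.3% ± 2.42 (SD, n = 3) on the stiff matrix.

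CDKN3 was the highest of the 14 genes on average. Its log2 fold change was the largest positive one among them with a pseudocount of 1 but not with 0.01, where it was 0.87 beside 1.62 for CDKN2A and 0.97 for CDKN2D, whose libraries overlapped. It was listed at 58.66, 48.94 and 62.92 FPKM at 2 kPa and at 122.29, 96.24 and 93.10 FPKM at 25 kPa. Every stiff library was above every soft one, with means of 56.8 ± 7.17 and 103.9 ± 16.0 FPKM (SD, n = 3). The log2 fold change of 0.86 (SE 0.15, 95% confidence interval 0.52 to 1.19) ranked 27th of 8529 by p and did not pass (limma adjusted p = 0.0801). CDKN3 is known to peak with mitotic genes.

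**Figure D3:**
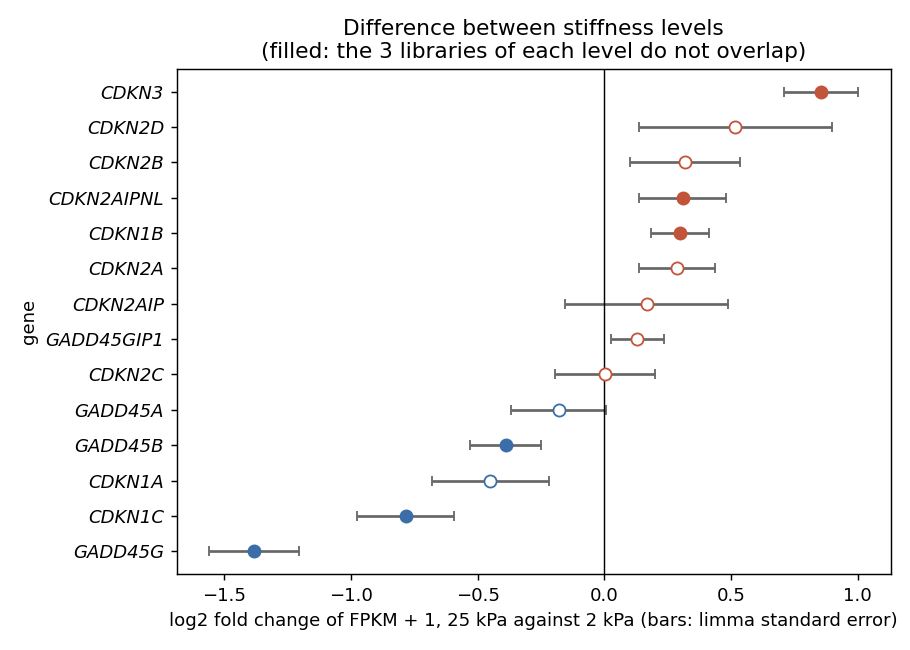
Log2 fold change of FPKM + 1 at 25 kPa against 2 kPa for the 14 genes, with bars for the limma SE. Filled points mark the 6 genes whose libraries do not overlap between the stiffness levels, from −1.38 for GADD45G to 0.86 for CDKN3.

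The 3 genes named as an interacting protein or its relative all had a log2 fold change above 0, as 59.6% of all genes did. In limma 0 of them passed the adjusted threshold. GADD45GIP1, a protein of the mitochondrial ribosome that also binds GADD45 proteins, was listed at 60.92, 55.21 and 54.00 FPKM at 2 kPa and at 64.95, 62.45 and 58.87 FPKM at 25 kPa. The groups overlapped (log2 fold change 0.13, SE 0.11, limma adjusted p = 0.752). CDKN2AIP, which binds ARF, was listed at 2.94, 1.25 and 0.91 FPKM at 2 kPa and at 2.77, 1.76 and 1.30 FPKM at 25 kPa (log2 fold change 0.17, SE 0.32, limma adjusted p = 0.919). Libraries of the same stiffness spread widely for this gene. CDKN2AIPNL, a shorter relative of CDKN2AIP, was listed at 0.36, 0.63 and 0.73 FPKM at 2 kPa and at 0.82, 1.30 and 0.74 FPKM at 25 kPa. Its highest soft library (0.73) lay just below its lowest stiff one (0.74), and its log2 fold change of 0.31 (SE 0.17) did not pass (limma adjusted p = 0.590).

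By level at 2 kPa the order was CDKN3, GADD45GIP1, CDKN1B, CDKN1C, CDKN2B, GADD45G, CDKN1A, CDKN2AIP, CDKN2D, CDKN2C, GADD45B, GADD45A, CDKN2AIPNL and CDKN2A. CDKN3 and GADD45GIP1 overlapped in their libraries, GADD45GIP1, CDKN1B and CDKN1C were each apart from the next, and every neighbouring pair from CDKN2B to CDKN2AIPNL overlapped, and CDKN2A lay below CDKN2AIPNL in every soft library. At 25 kPa the first 5 genes kept this order and each was apart from the one after it, while all neighbours from the 6th place on overlapped. GADD45G was the gene whose place changed most, from 6th to 14th.

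The targets of the inhibitors were examined with a list of 26 CDK, cyclin, RB and E2F genes, of which 19 were in the table. All 19 had a log2 fold change above 0, beside 59.6% of all genes, with a median of 0.30, and 0 passed the adjusted threshold. Without 2 kPa replicate 3, 16 of the 19 were above 0, beside 53.3% of all genes. With libraries rescaled to equal sums or quantile normalised 17 of the 19 were above 0 (45.6% and 50.7% of all genes), and with median centring 18 (49.1%). The libraries lay apart for 7 of the 19, all higher at 25 kPa, beside 16.0% of all genes (11.2% higher). In limma 6 of 19 had an unadjusted p under 0.05, all higher, beside 10.2% of all genes (6.96% higher). CDK2, the kinase bound by p27 and p57 and acted on by CDKN3, was listed at 0.31, 1.11 and 0.70 FPKM at 2 kPa and at 2.85, 1.62 and 1.71 FPKM at 25 kPa (log2 fold change 0.85, SE 0.25, limma adjusted p = 0.285). Its cyclin partners CCNE2 (log2 fold change 0.81, limma adjusted p = 0.193) and CCNA2 (0.75, limma adjusted p = 0.108) and the transcription factor E2F2 (0.78, limma adjusted p = 0.259) also had no overlap between groups. The INK4 targets CDK4 (95.6 and 105.5 FPKM on average at 2 kPa and 25 kPa, limma adjusted p = 0.818) and CDK6 (0.343 and 0.417 FPKM, limma adjusted p = 0.932) overlapped. CDK1 was not analysed here.

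**Figure D4:**
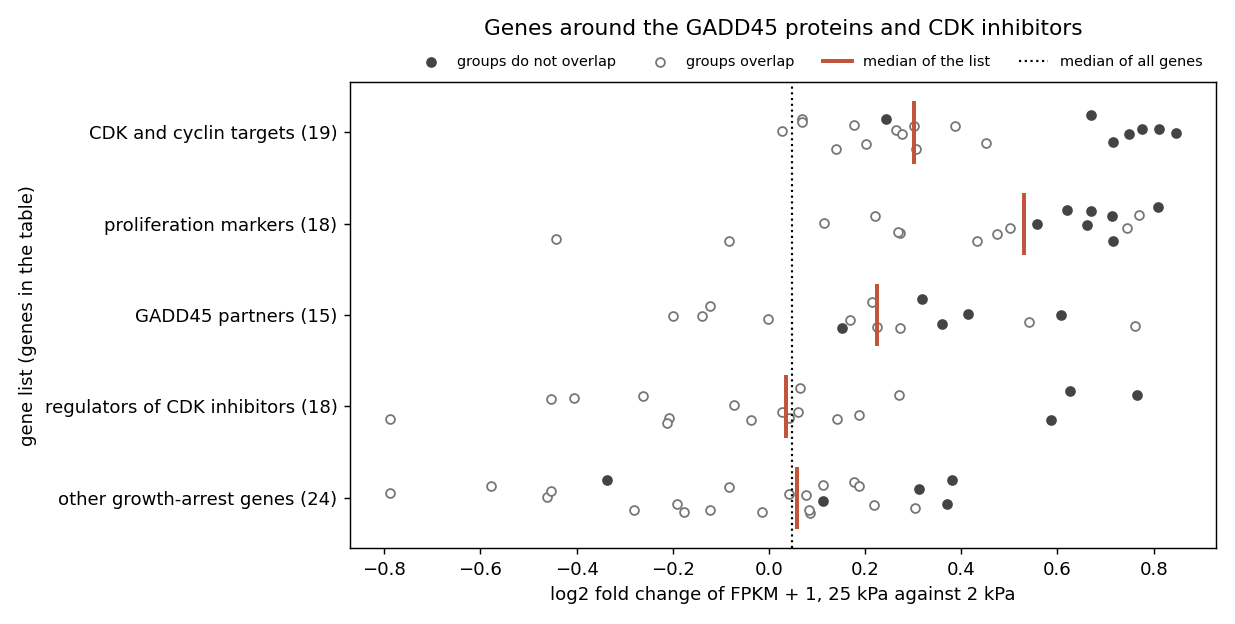
Log2 fold change of FPKM + 1 at 25 kPa against 2 kPa for the genes of 5 of the 6 lists around the GADD45 proteins and CDK inhibitors, with filled points where the libraries do not overlap, a red line at the list's median and a dotted line at the median of all genes. The median is 0.30 for the CDK and cyclin targets and 0.53 for the proliferation markers, and between 0.03 and 0.22 for the other 3 lists shown.

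Of 22 proliferation markers, 18 were in the table, and 16 had a log2 fold change above 0, with a median of 0.53. In limma 0 of 18 were past the adjusted threshold. At an unadjusted p under 0.05 there were 8, all higher, beside 10.2% of all genes (6.96% higher). The libraries lay apart for 7 of the 18, higher at 25 kPa, beside 16.0% of all genes (11.2% higher). With libraries rescaled to equal sums 5 were apart, all higher, beside 455 higher and 664 lower of all 8529 genes. BUB1 was no longer apart there. Among the 7 were the mitotic cyclins CCNB2 (38.4 and 63.8 FPKM on average, log2 fold change 0.72, limma adjusted p = 0.0759) and CCNB1 (61.4 and 97.9 FPKM, 0.67, limma adjusted p = 0.108), the checkpoint kinase BUB1 (0.71, limma adjusted p = 0.252) and the thymidine kinase TK1 (0.81, limma adjusted p = 0.341). The proliferation list and the list of CDK and cyclin targets both hold CCNB1 and CCNB2.

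Partners of the GADD45 proteins, in stress kinase signalling, DNA demethylation and repair, were represented by 15 of 22 genes, of which 11 were above 0 and 4 below, with a median of 0.22. None of the 15 passed in limma with an adjusted p under 0.05, and 1 had an unadjusted p under 0.05, beside 10.2% of all genes. As deposited, the libraries had no overlap for 5 of the 15, all higher at 25 kPa, beside 16.0% of all genes (11.2% higher). This depended on the scaling, with 1 of 15 (MAPK9) for equal sums and 2 of 15 (MAPK8 and TDG) for both median centring and quantile normalisation. Of all 8529 genes, 455 were apart and higher for equal sums, 667 with median centring and 717 with quantile normalisation. The kinases MAPK8 (1.92 and 2.88 FPKM on average) and MAPK9 (0.903 and 1.37 FPKM), the glycosylase TDG (4.56 and 6.17 FPKM) and the mitotic kinase AURKA (4.46 and 7.11 FPKM) were among the 5, with limma adjusted p from 0.516 to 0.574. MAP3K4, which GADD45 proteins bind directly, and PCNA overlapped, and both were singled out after their values were seen. MAP3K4 ranged from 0.46 to 1.64 FPKM at 2 kPa and from 0.04 to 1.73 FPKM at 25 kPa, and PCNA from 2.52 to 4.79 and from 2.76 to 5.76 FPKM.

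Of 34 regulators of CDK inhibitors, 18 were in the table, 10 above 0 and 8 below, with a median of 0.03. In limma 0 were past the adjusted threshold and 3 had an unadjusted p under 0.05, all higher, beside 10.2% of all genes (6.96% higher). The libraries of CKS1B, CKS2 and CUL4B lay apart, higher at 25 kPa, and 3 of 18 is near the 16.0% of all genes (11.2% higher). With libraries rescaled to equal sums 3 were apart and higher and 2 apart and lower, beside 455 higher and 664 lower of all 8529 genes. CKS1B, the cofactor of the ubiquitin ligase that marks p27 for degradation, was listed at 108.17, 69.53 and 96.57 FPKM at 2 kPa and at 166.78, 163.60 and 132.42 FPKM at 25 kPa (log2 fold change 0.76, limma adjusted p = 0.186). CKS2, its paralog, differed by 0.63 on the log2 scale (limma adjusted p = 0.170) and CUL4B, the scaffold of another ubiquitin ligase, 0.59 (limma adjusted p = 0.181). MYC, which represses several CDK inhibitor genes, was at 69.3 FPKM on average at 2 kPa and 59.6 FPKM at 25 kPa, and the groups overlapped (limma adjusted p = 0.741). SKP2 was not analysed here.

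Of 32 other growth-arrest genes, 24 were in the table, 13 above 0 and 11 below, with a median of 0.06. In limma 0 were past the adjusted threshold and 2 had an unadjusted p under 0.05, beside 10.2% of all genes. As deposited 4 were higher and 1 lower without overlap, near the 16.0% of all genes. Equal sums gave 1 higher and 2 lower, beside 455 higher and 664 lower of all 8529 genes. Median centring gave 1 higher and 1 lower, beside 667 higher and 600 lower of all genes. GAS6, GAS2L1 and ING2 were higher and CGREF1 lower as deposited, with limma adjusted p from 0.314 to 0.605, and ING2 was apart under none of the 3 other scalings. Another list that was examined is not described here. Of its 28 genes in the table, 15 were above 0 and 13 below, with a median of 0.02. The libraries lay apart for 1 that was higher and 4 that were lower at 25 kPa. Together these 5 were near the 16.0% of all genes, but their split ran the other way (11.2% of all genes higher and 4.78% lower). Under each of the 3 other scalings 4 were again apart and lower. In limma 0 were past the adjusted threshold. At an unadjusted p under 0.05 there were 3, all lower, beside 3.19% of all genes that were lower.

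The genes whose FPKM most resembled those of GADD45G over the 6 libraries were sought among 5798 genes with a mean of at least 1 FPKM. They were TNFRSF11B (Pearson r of log2 values 0.986), FAM109B (0.981), TSPO (0.966), LBX2 (0.966), GPX4 (0.964) and GRK6 (0.958). The libraries form separate groups of 3 by GADD45G, so this likeness mainly carries the difference between the groups and is given without a p. TNFRSF11B, the decoy receptor osteoprotegerin, was listed at 13.21, 12.41 and 16.00 FPKM at 2 kPa and at 7.67, 6.63 and 7.16 FPKM at 25 kPa. Every soft library lay above every stiff one, as for GADD45G, while the order within the stiff libraries differed from that of GADD45G.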

How the data were processed

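The table deposited by the authors gives FPKM with 2 decimals for 8529 symbols in 6 libraries, made after a quality check of the reads. HISAT, StringTie, Bowtie2, RSEM and hg18 stand in the submitters' processing notes without roles, and filters are not given in the sources used here. FPKM carry no read number, so precision rests on the spread between 3 libraries, and DESeq2, which the authors named, was not run because FPKM are not counts. From the deposited FPKM, log2(FPKM + 1) of all genes was compared in limma 3.58.1 (R 4.3.3; eBayes with a variance trend, two-sided, Benjamini-Hochberg over all genes, adjusted p under 0.05). The fit was tested on simulated data. The members and lists were chosen with earlier results of these data known. Named are all members, the CDK1, CDK2, CDK4, CDK6, MYC and SKP2 genes, the 6 genes most like GADD45G, and up to 4 genes per list with the largest difference without overlap. Some items covered by the naming rule are not reported here. Symbols written as dates (11) were tested and not named. Promoter windows came from RefSeq (GRCh38.p14) by symbol, and overlapping genes from GENCODE. Other settings tried were a pseudocount of 0.1 or 0.01, a filter at a mean FPKM of 1, 3 scalings, eBayes without a trend, a replicate block and each library left out. Python 3.11.15 was used for counts and plots.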

Additional observations from a re-analysis of the deposited data

How the results depend on the processing

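The count of genes past the threshold over all genes was 10, and 17 with a pseudocount of 0.1, 6 without a variance trend and 3 with the replicate block. Omitting 1 library gave 3 to 11 genes, with 3 when 25 kPa replicate 2 was omitted, 5 when replicate 1 of either stiffness was and 6 when 25 kPa replicate 3 was. Under all 14 alternatives 0 of the members tested other than GADD45G passed, and so did 0 genes of each of the 6 lists, the one not described included. Deviations of same-numbered libraries from their group means correlated at 0.115, −0.267 and −0.125, and those of differently numbered libraries at −0.238 to 0.294. Deviations from a mean of 3 must sum to 0, so these values cannot decide whether the replicate numbers pair the libraries. The replicate block changed no call among these 13 members, of which 0 passed in the main fit. CDKN2C turned direction after rescaling to equal library sums (−0.055), median centring (−0.051) and quantile normalisation (−0.061), and ranged from −0.14 to 0.16 with each library left out. With each library left out, CDKN2AIP ranged from −0.047 to 0.48 and CDK6 from −0.046 to 0.22, and the cause was not tested. For the other 12 of the 14 members the direction was kept in all alternatives that could be computed. The scalings were applied to the count of separated members after seeing the data. It was 6 as deposited, 5 after rescaling, 4 after median centring and 5 after quantile normalisation. In the same order 1361, 1119, 1267 and 1369 of all 8529 genes were apart.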
